A study of Xenopus tropicalis with 12 samples.

Results

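TR binding in the hind limb of TRα (-/-) tadpoles was compared between T3 treatment and no T3 treatment, region by region. The 3 peak lists with T3 and the 3 without held 136785 peaks, and these formed 93344 regions once peaks with 1 bp or more in common were joined. A region was kept when at least 2 of the 3 libraries of either treatment had a peak in it, which left 13869 regions (14.9%). Over all 12 libraries of the series, wild type included, the same merging gave 189159 regions. Of those not kept, 75860 had a peak in a single library and 3615 had a peak in 1 library of each treatment.

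The TRα (-/-) *Xenopus tropicalis* tadpoles received T3 at 10 nM over 18 h at about stage 54, and TRα (-/-) tadpoles of that stage without T3 served as their control. Wild-type tadpoles, which the sample labels describe as having the same parents, with and without T3, are used below as a further comparison. Chromatin of the hind limb was pooled over several tadpoles for each of the 4 conditions, immunoprecipitated with an antibody against TR and sequenced as 3 libraries. These are technical replicates, so the spread between them does not cover differences between groups of tadpoles, and 3 libraries against 3 cannot give an exact permutation p below 0.1. All groups compared below carry the TRβ gene, and the TRα (-/-) animals came from crosses of heterozygous frogs. The lists do not say which receptor was bound at a peak, and no control library entered the peak calling.

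T3 is the active form of thyroid hormone, which drives metamorphosis in frogs. Its receptors, TRα and TRβ, bind thyroid hormone response elements in DNA, mostly as a dimer with the retinoid X receptor, both with and without hormone. Without T3 the receptor recruits corepressor complexes to its target genes, and with T3 it recruits coactivators instead. TRα is the receptor expressed most in the hind limb before metamorphosis, and TRβ, the receptor left in a TRα (-/-) limb, is encoded by a gene that T3 itself switches on. The comparison therefore asks where TR is detected on chromatin in a limb without TRα, and whether T3 treatment changes this.

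In TRα (-/-) hind limb, 12264 regions were bound with T3 treatment and 7418 without, a ratio of 1.65. Those bound under both treatments numbered 5813 (41.9% of the regions kept, 95% Wilson interval 41.1 to 42.7%, counting error only), and they were 47.4% of the regions bound with T3 and 78.4% of those bound without. A further 6451 regions (46.5%, interval 45.7 to 47.3%) met the rule with T3 only, and 1605 (11.6%, interval 11.1 to 12.1%) met it without T3 only. Of all merged regions these were 6.23%, 6.91% and 1.72%. The surplus with T3 was spread over the genome, with ratios between 1.59 on chromosome 10 and 1.72 on chromosome 3 among the 10 chromosomes.

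The size of that surplus depended on a few libraries. With replicate 2 left out under both treatments, whose library without T3 had the fewest peaks, 7480 regions were bound with T3 and 6677 without, a ratio of 1.12, and 41.1% were bound under both. Replicates 1 and 2 alone gave 6911 regions with T3 and 2472 without (ratio 2.80), and replicate 3 alone gave 25336 and 20604 (ratio 1.23), both chosen after seeing the data. Leaving out only the T3 library of replicate 3 turned the order, with 6955 regions with T3 and 7378 without (ratio 0.943). Without the T3 library of replicate 2 the ratio was 1.01, and it was 4.17 and 4.90 without replicate 1 or 3 of the side without T3. Since 2 libraries were still required, these steps mainly lower the count of their own side, and the counts of the other side stayed within 7378 to 7415 regions without T3 and 12232 to 12265 with T3.

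Depth was alike on the 2 sides as a whole but not library by library. The T3 libraries of replicates 1, 2 and 3 held 940383, 1832197 and 2851627 fragments after filtering, against 1597734, 834029 and 3000220 without T3 (exact permutation test, p = 0.9). The lists held 38371, 28393 and 25461 peaks with T3, against 19088, 4645 and 20827 peaks without T3, so the 2 sides did not overlap. The shallowest T3 library had the longest list, and 50.6% of its peaks had a summit pileup of 2 fragments, the lowest in that list. The lowest pileup in the other lists was 3 or 4 fragments, and peaks at that level made up 27.1% and 13.6% of the T3 lists of replicates 2 and 3, against 31.7%, 30.6% and 13.7% of the lists without T3. In the headers, replicates 1 and 2 share a run sample number and replicate 3 has another (8 and 20 with T3, 7 and 19 without).

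For peaks of some height, the libraries of the 2 sides overlapped. Peaks with a pileup of at least 10 fragments numbered 1558, 4465 and 8032 with T3, against 2193, 611 and 5989 without, a difference of 1754 peaks in the mean (exact permutation test, two-sided, p = 0.6, n = 3 libraries each). Per 1000000 fragments there were 2303 ± 591 such peaks with T3 and 1367 ± 632 without (SD, n = 3 each, exact permutation p = 0.2). Peaks with a fold enrichment of at least 8 over the local background numbered 1080, 2329 and 3201 with T3, against 1433, 470 and 2780 without (exact permutation p = 0.5, n = 3 each). Most of the difference in peak number therefore lay in peaks below 10 fragments, and for higher peaks it was within the spread between libraries. That spread includes differences in depth between libraries of the same side, and libraries of like depth are compared below.

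**Figure D1:**
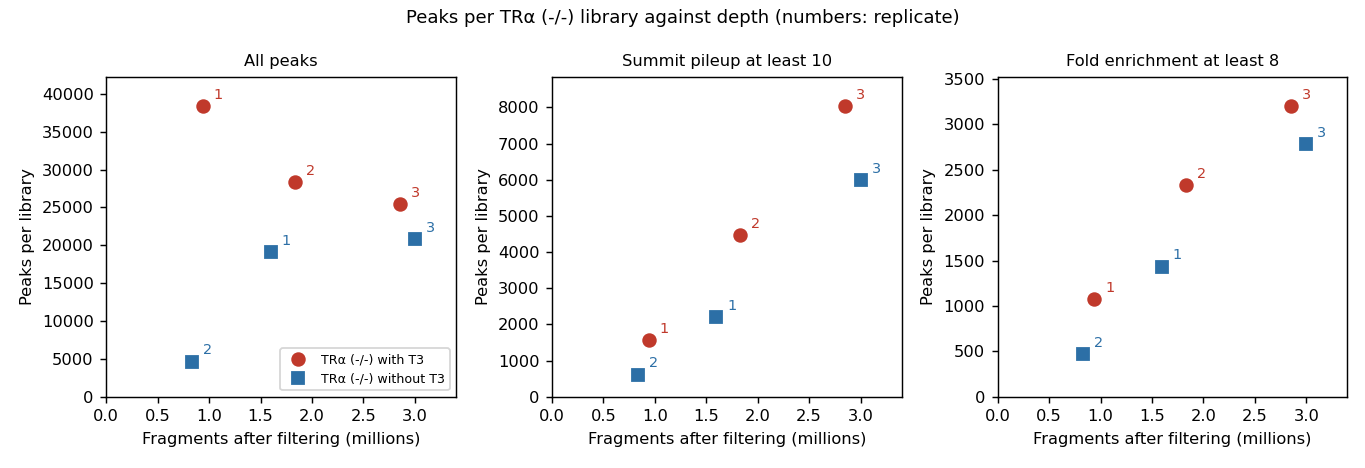
Peaks in each TRα (-/-) library against its fragments after filtering (axis in units of 1000000), for all peaks, for those with 10 or more fragments at the summit and for those with a fold enrichment of at least 8. Red circles are libraries with T3 and blue squares those without T3, with the replicate number beside each. In the left panel all T3 libraries lie above those without T3 and the shallowest is the highest, at 38371 peaks, whereas in the other panels the number of peaks is higher in deeper libraries and the T3 libraries lie above the libraries of like depth.

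Libraries of like depth were then set side by side, a pairing chosen after seeing the data. At the greatest depth (replicate 3 of both sides, depth ratio 0.950), 8032 peaks with T3 and 5989 peaks without T3 had a pileup of at least 10, a ratio of 1.34. At the middle depth (replicate 2 with T3 and replicate 1 without, depth ratio 1.15) the numbers were 4465 and 2193, a ratio of 2.04. At the lowest depth (replicate 1 with T3 and replicate 2 without, depth ratio 1.13) they were 1558 and 611, a ratio of 2.55. T3 had more high peaks in each of the 3 pairs, and the ratio was smallest where the depth was greatest. For peaks with a fold enrichment of at least 8 the ratio was 1.15 at the greatest depth and 1.63 at the middle depth, and 1080 peaks with T3 stood against 470 without T3 at the lowest.

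The deepest pair shows how far the 2 lists held the same regions. Of the peaks of T3 replicate 3, 36.5% overlapped a peak of replicate 3 without T3, and 36.5% overlapped a peak of T3 replicate 2, a library of the same treatment. Among the top 10% of the list by fold enrichment these shares were 92.3% and 92.9%. Conversely, 45.1% of the peaks of replicate 3 without T3 overlapped a peak of T3 replicate 3, against 32.1% in replicate 1 without T3, and among the top 10% the shares were 95.3% and 89.1%. The libraries compared within a treatment were shallower, with 1832197 fragments in T3 replicate 2 and 1597734 in replicate 1 without T3. Shares within and between treatments are therefore not a like contrast here. At the depth of replicate 3, most of the strongest peaks of one treatment were found again in the other. For the shallower T3 libraries the shares were lower. The top 10% of T3 replicate 1 were found again at 65.0%, 38.9% and 74.0% in replicates 1, 2 and 3 without T3, and at 75.4% and 78.2% in T3 replicates 2 and 3. For T3 replicate 2 the shares were 78.7%, 50.3% and 88.9% in the libraries without T3, and 81.8% and 91.8% in T3 replicates 1 and 3. The lowest share was in replicate 2 without T3 each time, which had the shortest list. The top 10% of replicate 1 without T3 were found again at 85.0, 90.7 and 93.1% in T3 replicates 1, 2 and 3. For replicate 2 without T3, the shallowest library, these shares were 95.3, 97.0 and 96.3%. Just below the middle of the lists of replicate 3 (between 40 and 50% of the way up), 26.8% of the T3 peaks and 33.6% of the peaks without T3 were found again across treatments. In that part of the lists of T3 replicates 1 and 2, 0.495 to 2.95% and 1.84 to 12.8% were found again in libraries without T3. Within the T3 treatment these shares were also low, 3.59 and 3.62% for replicate 1 and 11.9 and 16.9% for replicate 2. Tied values put 8073 peaks of T3 replicate 1 in that part and 0 in the part just below it. For replicates 1 and 2 without T3 the shares in T3 libraries were 18.1 to 27.9% and 42.9 to 58.7%. In the other libraries without T3 they were 5.44 and 24.2% for replicate 1, and 42.7 and 56.2% for replicate 2.

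Presence in single libraries shows what stands behind the 3 classes. A peak in all 6 libraries was found in 1902 regions, 32.7% of those bound under both treatments, and another 1895 (32.6%) lacked a peak in replicate 2 without T3 only. Among the 6451 regions that met the rule with T3 only, 3277 (50.8%) had a peak in 1 library without T3, which was replicate 3 in 2335 of them (36.2% of the class). Among the 1605 regions that met it without T3 only, 1041 (64.9%) had a peak in 1 library with T3, which was again replicate 3 most often (559 regions, 34.8%). The most frequent pattern in the T3-only class was a peak in replicates 2 and 3 with T3 and in no other library (1119 regions, 17.3%). Much of each class thus lay a single peak away from the shared class.

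**Figure D2:**
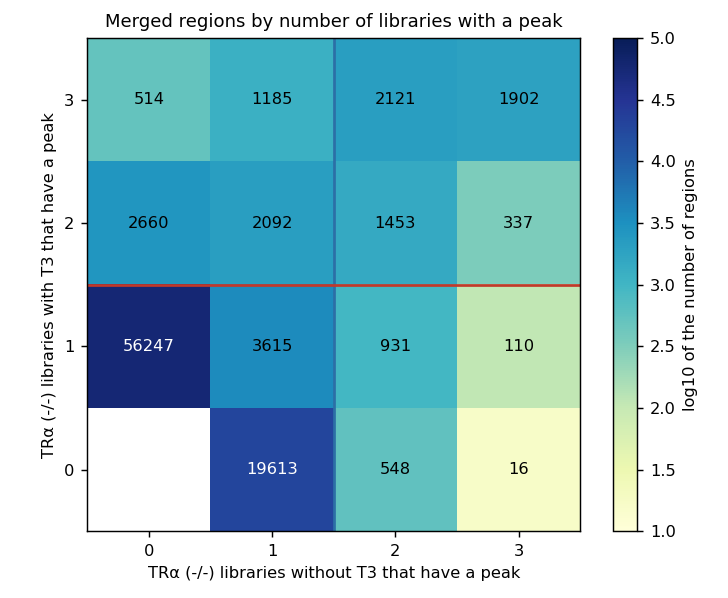
Number of merged regions by how many TRα (-/-) libraries with T3 (vertical axis, 0 to 3) and without T3 (horizontal axis, 0 to 3) had a peak in them, with colour on a log10 scale. Regions above the red line were bound with T3 and those right of the blue line without T3. The corner cells hold 514 regions with a peak in all 3 libraries with T3 and none without, and 16 regions the other way round, against 1902 in all 6 libraries.

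The strictest contrast was a peak in all 3 libraries of one treatment and in none of the other. It was met by 514 regions with T3 (0.551% of merged regions) and by 16 regions without T3 (0.0171%). The count without T3 requires a peak in replicate 2, whose list was 4645 peaks long. Leaving out that replicate on both sides was planned, and its strict count was added after seeing the data. In it, 1373 of 76240 regions (1.80%) had a peak in both remaining libraries with T3 and in neither without, and 699 (0.917%) had the reverse. Of the 1373 regions, 550 had a peak in replicate 2 with T3 and 54 in replicate 2 without T3. Of the 699 regions, 241 had a peak in replicate 2 with T3 and 58 in replicate 2 without T3. The list of replicate 2 held 28393 peaks with T3 and 4645 without, so these counts are not a like contrast between treatments. The part of list length in them was not tested. With the 4645 best peaks by q value taken from every list, 129 regions had a peak in all 3 libraries with T3 only and 76 in all 3 without T3 only, and the ratio of bound regions was 1.11 (3672 with T3 and 3297 without).

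Regions found under a single treatment were weaker than shared regions in every TRα (-/-) library. The rule asks shared regions for peaks in more libraries, and strong peaks were found again in other libraries more often. By fold enrichment, 12.1% of the bottom 10% of T3 replicate 3 overlapped a peak of replicate 3 without T3, against 92.3% of the top 10%. The rule by itself thus favours strong regions in the shared class, and its part in the difference was not tested. Strength is given as the percentile of fold enrichment within a list, on which 100 is the strongest peak. Shared regions had median percentiles of 90.9, 86.6 and 84.8 in the libraries with T3, against 81.3, 68.2 and 82.4 in those without. The T3-only regions had medians of 71.7, 65.0 and 60.1 with T3, and those of them that also had a peak in a library without T3 had 57.1, 40.1 and 58.5 there. Regions of the no-T3-only class had 71.7, 64.6 and 60.6 in libraries with T3 where they had a peak, against 59.8, 40.1 and 57.0 without. In pileup, the T3-only regions had medians of 4, 6 and 8 fragments in the 3 T3 libraries, and the shared regions 6, 11 and 16.

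In the shared class, the percentiles averaged 87.4 ± 3.11 with T3 and 77.3 ± 7.91 without (SD, n = 3 libraries each), a difference of 10.1 points (exact permutation test, p = 0.1). A longer list, with more low peaks below a given region, gives that region a higher percentile, and the T3 lists were the longer ones. The medians of the 6 libraries fell in the order of their list lengths, so the permutation test cannot tell T3 from list length. The part of list length in the difference was not tested. Percentiles of −log10 q differed by 10.9 points in this class (exact permutation p = 0.1). The classes bound under a single treatment were not tested in this way, because the presence of peaks on each side defined them. The medians of T3-only regions in the lists without T3 rested on 842, 100 and 2335 of the 6451 regions, and those of no-T3-only regions in the lists with T3 on 196, 286 and 559 of the 1605.

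**Figure D3:**
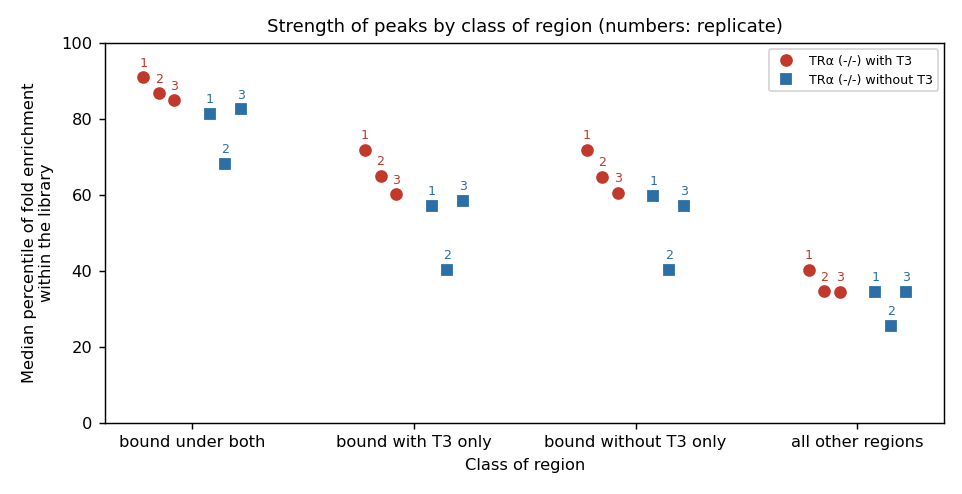
Median percentile of fold enrichment within the list (vertical axis, 100 is the strongest peak) for 4 classes of region in each TRα (-/-) library, red circles with T3 and blue squares without T3, numbered by replicate. Shared regions lie highest and regions outside the kept set lowest in every library, and the 2 classes bound under a single treatment lie between them at nearly the same level. Replicate 2 without T3 is the lowest library in each class.

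Ranks within the regions common to all libraries do not depend on list length in this way. For the 1902 regions with a peak in all 6 libraries, the fold enrichment was ranked within each library, the ranks were turned into normal scores (a scale with mean 0 and unit spread), and T3 was compared with no T3 by limma. No region passed an adjusted p of 0.05 (Benjamini-Hochberg over the 1902 regions), 0% in each direction, and the smallest adjusted p in limma was 0.222. An unadjusted p under 0.05 was reached by 232 regions (12.2%), 111 of them higher and 121 lower with T3. In 185 regions (9.73%) all 3 T3 libraries ranked above all 3 without T3, and in 175 (9.2%) they ranked below. Normal scores have the same mean in every library, so the balance of higher and lower regions carries no direction. No single region stood out from the spread between technical replicates. The share at an unadjusted p under 0.05 was above the rate that this threshold alone would give. The regions share their libraries, and this excess was not tested.

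The order of the 1902 regions by fold enrichment was correlated between treatments, but on average less than within either treatment. Spearman's correlation of fold enrichment across the 1902 regions averaged 0.658 over the 9 pairs of a T3 library and a library without T3 (0.565 to 0.780), 0.742 among libraries with T3 and 0.688 among libraries without T3. These are correlations across regions, which are not independent replicates. Pairs between treatments averaged 0.658 and pairs within a treatment 0.715, a difference of −0.0569 (exact permutation of libraries between treatments, p = 0.1, the smallest possible).

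Peak length and summit position in these 1902 regions differed by less than the libraries did among themselves. Median length was 660, 782 and 861 bp with T3, against 675, 478 and 826.5 bp without, a mean difference of 108 bp (exact permutation p = 0.5, n = 3 libraries each). The fragment size in the headers, on which peak length depends, was 180, 205 and 224 bp with T3, against 177, 180 and 200 bp without, and as a multiple of it the length was 3.77 ± 0.0945 with T3 and 3.53 ± 0.779 without (SD, n = 3, exact permutation p = 0.9). Summits of a T3 library and a library without T3 lay a median of 83.2 bp apart (mean of 9 pairs, 58 to 106 bp), compared with 74.2 bp among T3 libraries and 85.7 bp among libraries without T3. The distance between treatments exceeded that within by 3.25 bp (exact permutation p = 0.2), and it turned to −0.958 or −0.500 bp when T3 replicate 1 or 2 was left out.

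The 5 strongest regions bound under both treatments stood at the top of every list. The first lay at chr4:125425841-125426521 (Xenbase v9.1, as are all positions here) with summit pileups of 97, 136 and 218 fragments in the T3 libraries and 131, 71 and 174 in those without T3. The second, chr7:113789615-113790075, had 73, 107 and 150 fragments with T3 and 93, 54 and 121 without. The third, chr4:52501688-52502286, had 396, 859 and 1061 fragments with T3 and 362, 199 and 650 without. The pileups of these 3 regions were highest in the deepest library of each side. The fourth, chr8:23529077-23530237, had the highest pileups of the 5, at 1103, 1995 and 3116 fragments with T3, against 806, 325 and 1319 without. The fifth, chr9:7761721-7762205, had 170, 312 and 427 fragments with T3, against 188, 71 and 267 without. The 2 sides overlapped in pileup at all 5 regions. Pileups are not corrected for depth, and in rank score the 5 regions differed by 0.01 to 0.19 between T3 and no T3 (limma, adjusted p from 0.863 to 0.996).

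The leading regions with a peak in all 3 T3 libraries and none without T3 were chosen by their percentile of −log10 q. Their strength in the T3 libraries followed from that choice. All 514 such regions together had median pileups of 4, 6 and 8 fragments there, and median percentiles of fold enrichment of 76.2, 69.5 and 62.8. At chr9:67958295-67958635 the pileups were 19, 46 and 47 fragments with T3, percentiles 98.1, 99.0 and 96.0 of their lists, and the nearest peak of a library without T3 lay 45.8 kb away. In wild-type libraries the same region had a peak throughout, with 25, 39 and 50 fragments with T3 and 54, 65 and 73 without. This region thus had a peak of 19 to 73 fragments in 9 libraries and no peak in any of the 3 TRα (-/-) libraries without T3.

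The other 4 leading T3-only regions were alike in this respect. They lay at chr1:1897133-1898142 (7, 18 and 23 fragments in TRα (-/-) with T3), chr10:19606708-19607081 (17, 16 and 35), chr10:85744-86021 (9, 18 and 18) and chr5:4951814-4952564 (10, 21 and 26). All 4 had a peak in 6 of 6 wild-type libraries, with 3 to 30 fragments in wild type with T3 and 16 to 42 in wild type without T3. The nearest peak in TRα (-/-) without T3 lay 1.52 to 5.64 kb away from them. Leading regions of this class were therefore bound in untreated wild-type limb, as the plot of their pileups shows.

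The 5 leading regions with a peak in all 3 libraries without T3 and none with T3 were lower and less regular in wild type. They were chr4:130595243-130595557 (5, 5 and 8 fragments without T3), chr6:96474152-96474638 (4, 7 and 9), chr8:13495986-13496552 (7, 5 and 8), chr9:77982643-77983144 (8, 4 and 17) and chr8:1870822-1871705 (9, 5 and 12). None reached a peak in all 6 wild-type libraries. The region on chromosome 6 had a peak in 3 wild-type libraries with T3 and 0 without, and the one on chromosome 9 in 0 with T3 and 2 without. The 5 were picked from 16 regions, and the 5 leading T3-only regions from 514, so the 2 sets are not a like contrast. Of all 514 and all 16 regions, 70.8% and 68.8% were bound in wild type without T3, and 60.5% and 43.8% in wild type with T3. No wild-type peak was found in 22 of the 514 and 0 of the 16. Among regions chosen without replicate 2, the strongest of the no-T3-only kind was chr2:14687392-14687595, with 18 and 49 fragments in replicates 1 and 3 without T3. It was singled out after its values were seen, and it had a peak in replicate 2 with T3 and none in replicate 2 without T3.

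**Figure D4:**
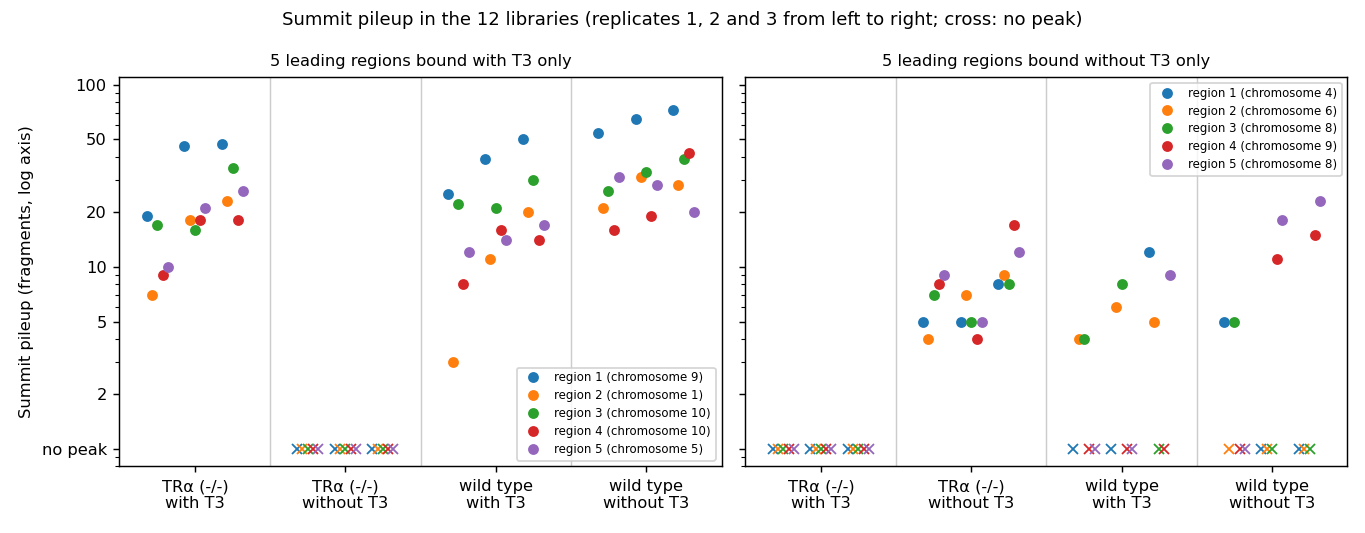
Summit pileup in fragments (log axis) of the 5 leading T3-only regions (left panel) and the 5 leading no-T3-only regions (right panel) in the 12 libraries, grouped by genotype and treatment with replicates from left to right. Crosses mark libraries without a peak. The T3-only regions have peaks in all 6 wild-type libraries, up to 73 fragments, and the no-T3-only regions have at most 17 fragments in TRα (-/-) libraries and gaps in wild type.

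Regions with the largest shifts of rank were chosen among those whose libraries did not overlap, since none passed the adjusted threshold. The largest rise was at chr1:169697099-169697691, with 13, 19 and 29 fragments with T3 and 4, 3 and 13 without T3, a rank score higher by 2.07 with T3 (SE 0.395, limma adjusted p = 0.229). At chr6:129072234-129073610 the pileups were 12, 14 and 28 with T3 and 5, 3 and 8 without (1.86, SE 0.327, limma adjusted p = 0.222). At chr10:2181079-2182051 they were 14, 16 and 36 with T3 and 6, 3 and 10 without (1.72, limma adjusted p = 0.233). In pileup the 2 sides overlapped at none of these regions but the first, where the T3 library of replicate 1 equalled replicate 3 without T3. The other risers were chr2:6881443-6882222 (1.79) and chr9:73665014-73665468 (1.73). The first of these had 4, 24 and 14 fragments with T3 and 4, 3 and 4 without. At the second, replicate 2 without T3 had 3 fragments beside 19 and 26 in replicates 1 and 3. In each of the 5 risers replicate 2 without T3 had 3 fragments, the lowest pileup in its list, so that few fragments lay behind its rank there.

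The largest fall of rank was at chr4:2137876-2139730. Its pileups were 3, 13 and 37 fragments with T3 and 45, 9 and 62 without T3, and its rank score fell by 1.76 (SE 0.547, limma adjusted p = 0.299). The next were chr2:167512176-167513153 (6, 3 and 14 fragments with T3, 13, 7 and 25 without), chr5:145932261-145933192 (5, 5 and 17, against 9, 8 and 43), chr8:109139223-109140354 (2, 4 and 10, against 5, 5 and 16) and chr9:74279570-74280463 (2, 10 and 17, against 13, 9 and 26). Their rank scores differed by −1.60 to −1.49 (limma adjusted p = 0.299 each). The lowest T3 library had 2 to 5 fragments in each of the 5, so that few fragments lay behind its rank there.

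Wild-type libraries give a readout that took no part in choosing these regions. Of the regions bound under both treatments in TRα (-/-), 88.7% were bound in wild type with T3 and 95.5% in wild type without T3, and 11 regions (0.189%) had no wild-type peak. Of the T3-only regions, 3112 (48.2%) were bound in wild type with T3 and 3952 (61.3%) in wild type without T3, and 893 (13.8%) had no wild-type peak. Of the no-T3-only regions, 621 (38.7%) were bound in wild type with T3 and 896 (55.8%) in wild type without T3, and 201 (12.5%) had no wild-type peak. For regions with a peak in a single TRα (-/-) library with T3, 2.28% were bound in wild type with T3 and 3.05% without, and 84.9% had no wild-type peak. More than 50% of each kept class was therefore bound in wild-type limb without T3.

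The T3-only class was not found more often in wild type with T3 than in wild type without T3. It had a peak in 39.3%, 48.6% and 56.2% of its regions in wild-type libraries with T3, against 56.5%, 57.8% and 64.5% in those without (48.0 ± 8.46% and 59.6 ± 4.31%, SD, n = 3 each, exact permutation p = 0.1). The no-T3-only class went the same way, with 32.2%, 41.6% and 49.5% with T3 and 49.6%, 52.8% and 61.1% without (exact permutation p = 0.1). Depth differed in that direction too, with 1055706 to 2307377 fragments in wild type with T3 and 3080104 to 6119057 without, and its part was not tested. The lead of the T3-only class over the no-T3-only class was 7.08, 7.07 and 6.71 percentage points in wild type with T3, against 6.86, 5.05 and 3.38 in wild type without T3. The difference of 1.86 points was within the spread of the libraries (exact permutation p = 0.2, n = 3 each).

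**Figure D5:**
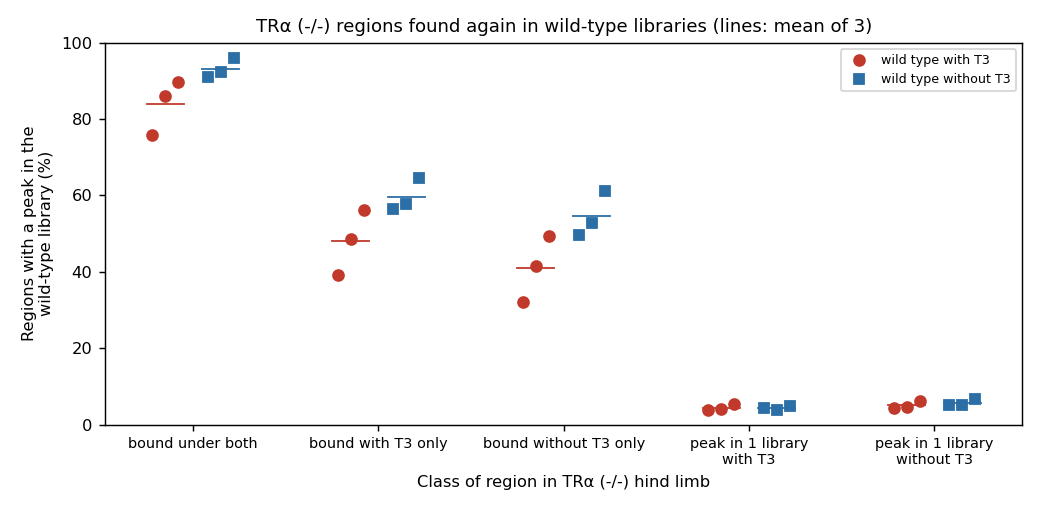
Share of TRα (-/-) regions with a peak in each wild-type library (vertical axis, percent) by the class of the region in TRα (-/-) hind limb. Red circles are wild-type libraries with T3, blue squares those without T3, and lines the mean of 3. Shared regions lie above 75%, the 2 classes bound under a single treatment between 32.2% and 64.5% with overlapping ranges, and regions of a single TRα (-/-) library below 10%.

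The shifts of rank in TRα (-/-), none of which passed the adjusted threshold, were not detected in wild type. The regions were chosen because their TRα (-/-) libraries did not overlap, so their median differences in TRα (-/-) followed from that choice. Of the 185 regions that ranked higher with T3 in all TRα (-/-) libraries, 174 had a peak in all 12 libraries, and 80 of them (46.0%) ranked higher with T3 in wild type, with a median difference of −0.03 there and 0.75 in TRα (-/-). Of the 175 lower ones, 149 had a peak in all 12 libraries, and 77 (51.7%) ranked higher with T3 in wild type, with a median of 0.00 there and −0.80 in TRα (-/-). Over all 1654 regions with a peak in all 12 libraries the share was 51.4%. The score of the higher regions minus that of the lower ones averaged 0.652 in wild type with T3 (0.624 to 0.687) and 0.675 in wild type without T3 (0.620 to 0.737), a difference of −0.02 (exact permutation p = 0.7, n = 3 libraries each).

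Under the same rule, 13448 regions were bound in wild type with T3 and 15859 without, a ratio of 0.848, where TRα (-/-) had 1.65. Every wild-type library without T3 (3080104 to 6119057 fragments) was deeper than every one with T3 (1055706 to 2307377). The part of depth in this ratio and in the wild-type differences below was not tested. The T3 difference was compared between the genotypes per library, over all 400 arrangements of genotype within treatment. These arrangements assume no genotype difference within either treatment, so their p does not isolate a dependence of the T3 difference on genotype. Without T3 the wild-type lists held 29582, 23668 and 23982 peaks, against 19088, 4645 and 20827 in TRα (-/-). For all peaks, T3 libraries had more in both genotypes, by 15888 in TRα (-/-) and by 12736 in wild type, 3152 apart (exact permutation p = 0.755). For peaks with a pileup of at least 10 the T3 difference was 1754 in TRα (-/-) and −4597 in wild type, 6351 apart (exact permutation p = 0.115). Per 1000000 fragments it was 936 in TRα (-/-) and 219 in wild type (exact permutation p = 0.24). For peaks with a fold enrichment of at least 8 it was 642 in TRα (-/-) and −1486 in wild type (exact permutation p = 0.125). These arrangements, at this number of libraries, cannot decide whether the T3 difference depended on genotype.

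Regions bound under a single treatment also lay nearer to shared regions than the remaining regions did. The median distance to the nearest shared region was 37.7 kb for T3-only regions (quartiles 12.9 and 134 kb) and 31.1 kb for no-T3-only regions (10.6 and 111 kb), and it was 171 kb for regions outside the kept set. Within 10 kb of a shared region lay 1261 T3-only regions (19.5%), 379 no-T3-only regions (23.6%) and 7.69% of those outside the kept set. Shared regions were also the longest, with a median of 922 bp, compared with 645 bp for T3-only and 617 bp for no-T3-only regions. This length spans all joined peaks, and the rule asks shared regions for peaks in more libraries, which by itself lengthens them. The part of the rule in the difference was not tested.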

How the data were processed

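ChIP-seq of TR was analyzed in 6 TRα (-/-) hind limb libraries, with 6 wild-type libraries for comparison. The authors aligned reads to Xenbase v9.1 with Bowtie2 2.3.4.1, removed redundant reads and called peaks in each library with MACS2 2.1.1.20160309 at a q value of 0.05, without a control. The deposited lists give peak and summit positions, the pileup at the summit (an unscaled signal in fragments), p-values and q-values as −log10, and fold enrichment, a ratio to the local background. Fragments after filtering, given by the authors in the headers, served as depth.

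Groups came from the sample labels. Merging, counting and exact two-sided permutation tests ran in Python 3.11.15 (numpy 2.4.6, pandas 2.3.3, scipy 1.17.1), and ranks were tested with limma 3.58.1 in R 4.3.3. The strongest peak of a library stood for a region. On simulated ranks of the 1902 regions, limma recovered 199 of 200 shifts of 2 score units and called 4 others. The simulation gave all regions of a library the same spread, which the data do not have. It therefore checks the procedure and does not measure how small a shift could be detected in the data. Named regions were the 5 with the best mean q percentile among strict T3-only and no-T3-only regions, the 5 with the best mean fold enrichment percentile among shared regions, and the 5 largest rank rises and falls without overlap. Members, lists and tests were chosen with earlier results of these data known. Alternatives covered the q value, libraries required, merging distance, region cover, list length, pileup, ranked value, replicate block and each library left out. Peaks were not assigned to genes and no sequences are shown, since no v9.1 genome or annotation was used here.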

Additional observations from a re-analysis of the deposited data

How the results depend on the processing

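The ratio of bound regions with T3 over without T3 (1.65) stayed above 1 except without T3 replicate 3. Leaving out each library in turn gave 0.943 (without T3 replicate 3) to 4.90 (without replicate 3 of the untreated side), and replicates 1 and 2 alone gave 2.80. Since 2 libraries were still required, leaving out a single library mainly lowered the count of its own side. With all 3 libraries required the ratio was 2.42, and with 1 it was 2.16. The share bound under both treatments (41.9%) was 43.1% at q below 0.01, 43.4% at q below 0.001, 14.7% with 1 library required, 30.8% with 3, 39.9% with peaks closer than 500 bp merged, 31.1% with 50% of a region covered, 49.1% with equal lists, 44.3% at a pileup of at least 4, 25.9% in replicates 1 and 2, 24.9% in replicate 3, and 18.5 to 45.8% with each library left out. The T3-only and shared median percentiles in T3 libraries (65.6 and 87.4) were 54.9 and 81.0 at q below 0.001, and 64.9 to 72.9 and 86.5 to 93.3 with each library left out. Summit distance between minus within treatments (3.25 bp) was −0.958 bp without T3 replicate 1, −0.500 bp without T3 replicate 2 and up to 9.33 bp without other libraries. Apart from that effect of the rule on the ratio, the cause of these changes was not tested.

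No rank change was called by limma in any setting, with a smallest adjusted p of 0.0570 to 0.716. The share of tested regions at an unadjusted p under 0.05 ran from 6.78% (281 of 4144) to 16.5% (314 of 1902). Same-numbered libraries correlated by 0.0920, 0.0561 and 0.282 in their deviations, and libraries of different number by −0.235 to 0.110. The main comparison did not take the numbers as pairs, and whether they mark pairs was not tested. With the replicate block, 271 of 1902 regions (14.2%) had an unadjusted p under 0.05 and 0 passed (limma, smallest adjusted p 0.0570). Paired peak numbers differed by 15888 (exact sign-flip test, p = 0.25). A region without a peak was not detected at that library's depth, 834029 fragments in the shallowest.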
